A study of Mus musculus with 9 samples.

Results

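NF-κB is a family of dimeric transcription factors built from 5 subunits, and among the genes it switches on are those for its own inhibitors, so that the pathway limits itself. This report follows 10 of its genes in mouse articular chondrocytes, the cells of joint cartilage. Members were chosen by symbol, with earlier results of these data known. They are the subunit genes Nfkb1, Nfkb2, Rela, Relb and Rel, and the inhibitor and feedback genes Nfkbia, Nfkbie, Nfkbiz, Tnfaip3 and Birc3. All 10 were found once each among the 55471 genes listed per culture, and all 10 passed the filter on low counts.

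Poly(A) RNA was sequenced from 9 primary cultures in 3 groups of 3. The first group, called Control in the labels and Ad-Control in the study's methods, received a control adenovirus. The second, Ad-OSCAR, received a virus carrying OSCAR, a collagen receptor best known from osteoclasts, and the third received Ad-OSCAR and then 10 µM 5-ASA (5-aminosalicylic acid, an anti-inflammatory drug of ulcerative colitis). What all 9 cultures shared was a wild-type origin at postnatal day 5, adenoviral infection and plates coated with COLpep, a collagen peptide that OSCAR binds, and none was given IL-1β. The labels give 3 days of culture, 2 h of infection at 400 MOI and a further 36 h before 5-ASA, whereas the methods give 2 days, 800 MOI and 24 h with or without 5-ASA. OSCAR here was delivered by a virus, and the counts of Oscar do not separate it from the chondrocytes' own gene. The model holds the response to infection in every group. The labels do not say whether the cultures of a group came from separate mice, so the p-values measure the spread between cultures, which may be technical.

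Estimated counts summed to between 19733448 and 28192740 per culture, and those of the 10 members ranged from 105 to 19758. Oscar itself had 3 to 4 counts in each Ad-Control culture, between 6354 and 7112 CPM (counts scaled to library size after TMM normalization) in Ad-OSCAR cultures and between 2946 and 3723 CPM with 5-ASA. Its level therefore also differed between treated and untreated Ad-OSCAR cells, by -0.97 ± 0.06 (SE) on the log2 scale (edgeR adjusted p = 1.76e-08). Chondrocyte markers, such as collagen and matrilin genes, summed to between 43280 and 49160 CPM in Ad-Control, between 3089 and 3483 CPM in Ad-OSCAR and between 3966 and 4431 CPM with 5-ASA. All 10 of these markers were lower in Ad-OSCAR, beside 32.2% of all genes tested (edgeR adjusted p below 0.05). In bulk RNA, fewer cells of a type and less RNA per cell cannot be told apart. The 16 leukocyte markers summed to between 7.79 and 9.99 CPM in Ad-Control, 15.0 and 15.6 CPM in Ad-OSCAR and 13.1 and 13.6 CPM with 5-ASA. C1qa, C1qb, C1qc and Cd3e were at 0 in all cultures, and Ptprc, Adgre1, Itgam and Tyrobp were among 7 further markers that never exceeded 3 counts.

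In resting cells, dimers are held in the cytoplasm by IκB proteins. The canonical route frees p50-RelA when the IKK kinase marks IκBα for destruction, and the noncanonical route acts more slowly through NIK and the processing of p100 to p52, which pairs with RelB. Nfkbia, which encodes IκBα, and Tnfaip3, which encodes the ubiquitin-editing enzyme A20, are classic feedback targets of NF-κB in many cell types. In chondrocytes the pathway is best known as the mediator of the response to IL-1β and TNF, which induces matrix-degrading enzymes and prostaglandin synthesis.

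The DNA element that NF-κB dimers bind is the κB site. RefSeq start sites on GRCm38.p6 gave windows of 250 bases before to 50 bases after the start for 7 of the 10 members (10 windows in all), whereas Nfkb1, Relb and Nfkbiz have none. The 10-letter κB consensus was GGGRNNYYCC, where R is A or G, Y is C or T and N is any base. Matches were counted on both strands, with overlapping ones kept. They were present in 7 of these 10 windows, against 8.46% of the 32851 windows of all genes. By gene, 5 of 7 members held a match (Nfkb2, Rel, Nfkbia, Nfkbie and Tnfaip3), against 9.55% of 27025 genes. Such a match is a description of letters and does not show that a site is bound. The stretches below, on the strand of the gene and 5′ to 3′, carry the matches in capitals, and those of Birc3 and Rela are shown because they hold none. Each is the part before the RefSeq start that lies outside the exons annotated for that gene, except for the first Nfkb2 window, which lies in an exon and of which 30 bases about the match are given.
Nfkbia, chr12:55492648-55492897, minus strand: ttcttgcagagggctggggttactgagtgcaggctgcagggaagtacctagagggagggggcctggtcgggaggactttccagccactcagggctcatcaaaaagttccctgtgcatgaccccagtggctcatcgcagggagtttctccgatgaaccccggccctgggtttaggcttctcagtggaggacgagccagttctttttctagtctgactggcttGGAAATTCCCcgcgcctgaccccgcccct
Tnfaip3, chr10:19015411-19015547, minus strand: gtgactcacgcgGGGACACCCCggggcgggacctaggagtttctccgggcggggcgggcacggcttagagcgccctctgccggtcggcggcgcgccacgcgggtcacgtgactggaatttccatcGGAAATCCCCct
Nfkbie, chr17:45555450-45555699, plus strand: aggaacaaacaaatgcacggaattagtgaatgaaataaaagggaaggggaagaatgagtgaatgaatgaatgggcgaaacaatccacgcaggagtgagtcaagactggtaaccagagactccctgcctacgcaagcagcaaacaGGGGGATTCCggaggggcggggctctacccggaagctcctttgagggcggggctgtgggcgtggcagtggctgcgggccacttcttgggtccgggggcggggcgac
Nfkb2, chr19:46304688-46304717, plus strand: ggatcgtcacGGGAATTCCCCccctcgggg
Rel, chr11:23770971-23771219, minus strand: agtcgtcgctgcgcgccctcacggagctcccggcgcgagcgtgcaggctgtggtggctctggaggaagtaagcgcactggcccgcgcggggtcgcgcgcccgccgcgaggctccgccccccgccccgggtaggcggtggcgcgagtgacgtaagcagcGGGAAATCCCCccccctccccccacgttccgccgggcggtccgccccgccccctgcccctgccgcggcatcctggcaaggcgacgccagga
Birc3, chr9:7873187-7873420, minus strand: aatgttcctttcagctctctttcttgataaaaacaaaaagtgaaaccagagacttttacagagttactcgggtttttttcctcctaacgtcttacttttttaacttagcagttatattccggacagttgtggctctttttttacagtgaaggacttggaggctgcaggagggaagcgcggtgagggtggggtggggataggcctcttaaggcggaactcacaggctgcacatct
Rela, chr19:5637291-5637482, plus strand: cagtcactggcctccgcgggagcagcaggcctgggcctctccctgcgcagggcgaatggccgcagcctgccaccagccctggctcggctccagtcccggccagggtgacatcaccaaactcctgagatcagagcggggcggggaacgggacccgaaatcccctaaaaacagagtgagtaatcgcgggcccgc

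Counting back from the start, the first base of the Nfkbia match stood at -29, that of the Nfkbie match at -106 and those of Tnfaip3 at -125 and -12. In Rel and in the first Nfkb2 window, the run of 11 capitals holds overlapping matches that begin at -92 and -91 and at -39 and -38. Nfkb2 held a further match at -11 of that window, and its other 2 windows held one each before their own starts, at -236 and -225. The last of these sites also lies in the second window, past its start. The second Tnfaip3 start, inside the gene, had no match in its window. Members with a match included those with high and with low levels and with large and small changes, as given below.

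The first question was how the 10 genes differed when OSCAR was overexpressed. All 5 subunit genes and all 5 inhibitor genes were higher in Ad-OSCAR than in Ad-Control cultures, and in none of the 10 did the groups overlap, in CPM or in TPM (transcript abundance, which accounts for gene length and library size). Over all 15362 genes tested, 32.7% were called higher and 32.2% lower at an adjusted p below 0.05, and 35% had every Ad-OSCAR culture above every Ad-Control culture in CPM (33.1% in TPM), so a call by itself was common. The changes ran from 1.26-fold for Nfkb1 to 5.37-fold for Tnfaip3. Their median log2 fold change was 0.86 over the members, 0.66 over the subunits and 1.69 over the inhibitors, beside 0.02 over all genes.

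**Figure D1:**
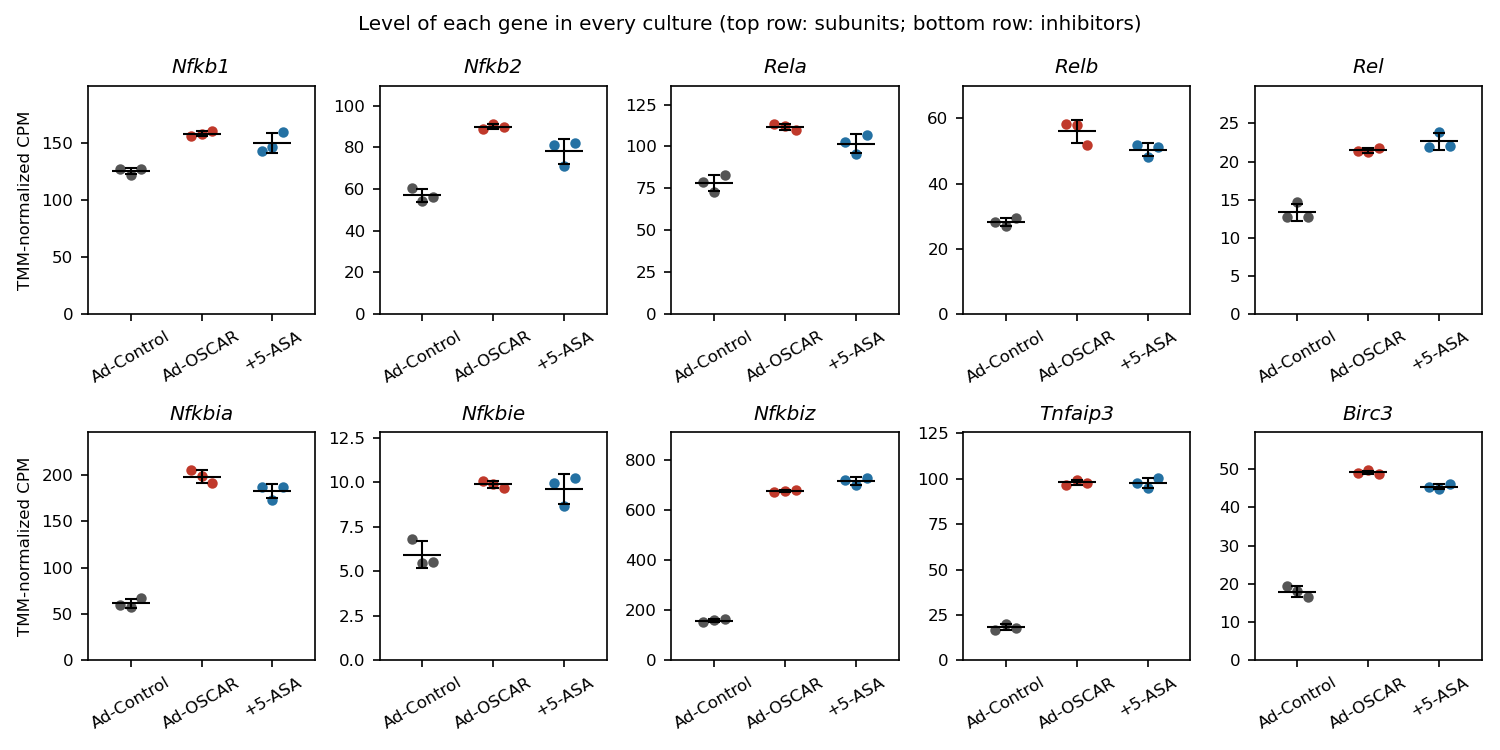
TMM-normalized CPM (y axis, from 0) of the 10 genes in each of the 9 cultures (points) with the mean and SD of each group (bars, n = 3), subunits above and inhibitors below. All Ad-OSCAR points lie above all Ad-Control points in each panel, by the widest margin in proportion for Tnfaip3 (18.2 to 97.9 CPM), and the 5-ASA-treated points lie close to the untreated ones.

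Among the subunits, Nfkb1, which encodes p105 and its product p50, had 126.9, 121.8 and 126.8 CPM in the Ad-Control cultures and 155.8, 157.9 and 159.9 CPM in the Ad-OSCAR cultures. The difference was the smallest of the 10, with a log2 fold change of 0.33 ± 0.05 (SE; edgeR adjusted p = 7.88e-06), and 27.3% of all genes had a larger one. Rela encodes the transactivating p65 subunit of the canonical dimer. Its Ad-Control cultures had 78.6, 73.1 and 82.9 CPM and its Ad-OSCAR cultures 113.4, 112.1 and 110.0 CPM, a log2 fold change of 0.52 ± 0.05 (edgeR adjusted p = 1.33e-07). The gene of the other canonical transactivator, Rel (c-Rel, best known from lymphocytes), was at 12.7, 14.6 and 12.7 CPM in Ad-Control and 21.4, 21.2 and 21.8 CPM in Ad-OSCAR, with a log2 fold change of 0.68 ± 0.07 (edgeR adjusted p = 1.51e-07).

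The noncanonical partners are Relb and Nfkb2, the latter encoding p100 and p52. Relb stood at 28.3, 27.1 and 29.5 CPM in Ad-Control and at 58.3, 57.9 and 51.9 CPM in Ad-OSCAR, the largest change of a subunit gene, with a log2 fold change of 0.99 ± 0.06 (edgeR adjusted p = 4.49e-11). Nfkb2 was at 60.5, 54.2 and 56.2 CPM and then at 88.8, 91.3 and 89.9 CPM, a log2 fold change of 0.66 ± 0.06 (edgeR adjusted p = 1.15e-08). The 95% interval of the Relb change, 0.86 to 1.11, lay above those of Nfkb1 (0.23 to 0.44), Rela (0.40 to 0.63), Nfkb2 (0.54 to 0.78) and Rel (0.53 to 0.83). Nfkb1 overlaps Gm43430, a tentative gene model on the same strand, and Nfkb2 overlaps a long noncoding RNA (AC114539.1) and, over 299 bases, Psd, both on the opposite strand, so part of their counts could belong to these neighbours.

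Larger changes were seen among the inhibitors. Tnfaip3 (A20, which removes activating ubiquitin chains upstream of IKK) had 16.9, 20.1 and 17.6 CPM in the Ad-Control cultures and 96.7, 99.5 and 97.5 CPM in the Ad-OSCAR cultures, a log2 fold change of 2.42 ± 0.06 (edgeR adjusted p = 1.50e-16) that only 1.75% of all genes exceeded. Nfkbiz encodes IκBζ, a nuclear IκB protein that acts as a cofactor of p50 and is needed for the induction of some targets, so it is not an inhibitor only. It was the most highly counted member, at 151.2, 160.3 and 164.4 CPM in Ad-Control and 670.3, 675.3 and 678.2 CPM in Ad-OSCAR, with a log2 fold change of 2.09 ± 0.04 (edgeR adjusted p = 2.02e-17). Nfkbia rose from 59.6, 57.9 and 67.0 CPM to 204.5, 198.8 and 190.6 CPM, by 1.69 ± 0.06 on the log2 scale (edgeR adjusted p = 1.48e-14).

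Birc3 encodes cIAP2, a ubiquitin ligase that helps TNF receptor signalling towards IKK and holds NIK in check, and it too is more than a brake. Its levels were 19.5, 18.1 and 16.5 CPM in Ad-Control and 49.0, 49.7 and 48.8 CPM in Ad-OSCAR, with a log2 fold change of 1.44 ± 0.06 (edgeR adjusted p = 1.40e-13). Birc2, its paralog, differed by 0.27 ± 0.06 (from 43.9 to 53.0 CPM, edgeR adjusted p = 0.000476), and reads shared by both would be divided between them by the counting. Nfkbie, which encodes IκBε, the slower-acting relative of IκBα, was the least changed of this group and the lowest in counts. It had 6.80, 5.47 and 5.55 CPM in Ad-Control and 10.1, 9.92 and 9.68 CPM in Ad-OSCAR, a log2 fold change of 0.74 ± 0.10 (edgeR adjusted p = 6.37e-06), which lay among the values of the subunits. The other 4 genes of the group, Tnfaip3, Nfkbiz, Nfkbia and Birc3, had lower 95% bounds of 2.30, 2.00, 1.57 and 1.32, all above the upper bound of Relb.

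By the study's stricter criteria for OSCAR (an absolute log2 fold change above 1.5 and an adjusted p below 0.05), 3 of the 10 members passed, all as higher (Nfkbia, Nfkbiz and Tnfaip3), beside 4.56% of all genes higher and 5.39% lower. Each of the 10 was called higher under all alternatives tried, with other tools, filters or cultures.

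**Figure D2:**
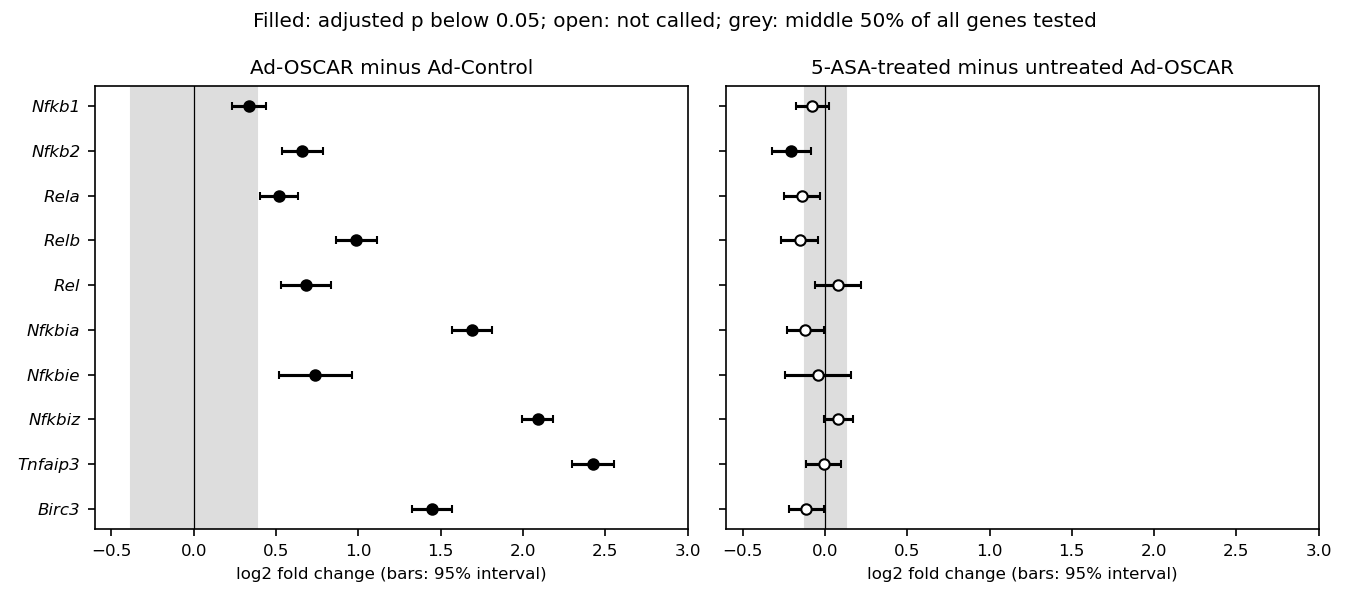
Log2 fold change (x axis) with its 95% interval for each gene, on the left for Ad-OSCAR minus Ad-Control and on the right for 5-ASA-treated minus untreated Ad-OSCAR, with filled points where the adjusted p was below 0.05 and a grey band over the middle 50% of all genes tested. All 10 points on the left are filled and run from 0.33 to 2.42, whereas on the right they lie between -0.20 and 0.08 and only Nfkb2 is filled.

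The second question was whether these genes differed between 5-ASA-treated and untreated Ad-OSCAR cells. Oscar itself was also lower with 5-ASA (3399 against 6665 CPM), and no group received 5-ASA without Ad-OSCAR. The part of the lower Oscar level in the differences below was not tested. Of the 10 members, Nfkb2 alone was called, and lower. Its cultures had 81.2, 71.2 and 82.0 CPM with 5-ASA against 88.8, 91.3 and 89.9 CPM without, a log2 fold change of -0.20 ± 0.06 (SE, edgeR adjusted p = 0.0165). The background was 7.38% of genes called lower and 10.4% called higher, so 1 of 10 members called lower is near it. The groups did not overlap, but the call rested on single cultures: the edgeR adjusted p was 0.0872 without the second 5-ASA-treated culture (log2 fold change -0.14) and 0.0502 without the second Ad-OSCAR culture (-0.20).

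Of the remaining subunits, Relb had 51.8, 48.0 and 51.3 CPM with 5-ASA, all below the untreated cultures by a small margin, with a log2 fold change of -0.15 ± 0.05 (edgeR adjusted p = 0.0597). Rela had 102.5, 95.6 and 106.6 CPM, again all below the untreated ones, with a log2 fold change of -0.14 ± 0.05 (edgeR adjusted p = 0.0812). For Nfkb1 the groups overlapped, at 142.6, 146.5 and 159.6 CPM with 5-ASA (log2 fold change -0.08, edgeR adjusted p = 0.301). Rel, at 22.0, 23.9 and 22.1 CPM, lay just above its untreated cultures (0.08, edgeR adjusted p = 0.479). None of these 4 passed the test.

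None of the 5 inhibitors passed the test, by edgeR or under any alternative tried, and 2 of them, Nfkbia (unadjusted p = 0.0427) and Birc3 (unadjusted p = 0.038), were below 0.05 before adjustment. Tnfaip3 had 97.4, 94.7 and 100.3 CPM with 5-ASA, on both sides of its untreated cultures, and a log2 fold change of -0.01 with a 95% interval of -0.11 to 0.10. Nfkbiz had 717.9, 697.4 and 726.1 CPM, all above the untreated cultures, with a log2 fold change of 0.08 and an interval of -0.01 to 0.17. The opposite order held for Nfkbia, whose 186.9, 173.2 and 187.1 CPM all lay below the untreated cultures (-0.12, interval -0.23 to -0.004, edgeR adjusted p = 0.148). Birc3 was likewise lower in every treated culture, at 45.3, 44.8 and 46.2 CPM (-0.11, interval -0.22 to -0.01, edgeR adjusted p = 0.137). Nfkbie, at 9.96, 8.68 and 10.2 CPM, overlapped its untreated cultures (-0.04, interval -0.24 to 0.16).

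Over the 10 members, 5 had every treated culture below every untreated one (Nfkb2, Rela, Relb, Nfkbia and Birc3), 2 had every treated culture above (Rel and Nfkbiz) and 3 overlapped, where 16.1% of all genes lay wholly below and 17.8% wholly above. Their median log2 fold change was -0.10, beside -0.004 over all genes. The 95% intervals of all 10 together spanned -0.32 to 0.22, that is folds of 0.80 to 1.16. The study's limits for 5-ASA, an absolute fold change above 1.5 and an unadjusted p below 0.05, are worded in its methods for treated cells against Ad-Control (given below). Applied instead to treated against untreated Ad-OSCAR cells, 0 of the 10 passed them by edgeR in either direction, beside 2.27% of all genes higher and 1.87% lower. In unscaled TPM the median of all genes moved to -0.08, and there Rel and Nfkbiz overlapped their untreated cultures, with differences of -0.02 and -0.01 (limma on log2(TPM + 1)), while Nfkb1 and Nfkbie joined those wholly below, for 7 in all, beside 26.3% of all genes wholly below in TPM. The direction of these small differences is therefore not settled for Rel, Nfkbiz, Tnfaip3 and Nfkbie.

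Set against Ad-Control, 5-ASA-treated Ad-OSCAR cells still had all 10 genes higher, with no overlap between the groups in any of them. The same comparison called 31.4% of all genes higher and 31.8% lower, and 33.4% had every treated culture above every Ad-Control culture. Tnfaip3 was 5.35-fold higher (log2 fold change 2.42 ± 0.06, edgeR adjusted p = 1.88e-16), Nfkbiz 4.50-fold, Nfkbia 2.97-fold and Birc3 2.52-fold. The subunits ranged from 1.195-fold for Nfkb1 to 1.78-fold for Relb. In this comparison, 7 of the 10 passed the limits the study set for 5-ASA, all as higher (Relb, Rel and the 5 inhibitors), beside 14.6% of all genes higher and 15.3% lower. This comparison and the previous ones share cultures and are not independent of each other.

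Levels of different genes can be compared per length, in TPM. In Ad-Control, the order was Nfkbia (84.9 ± 9.46 TPM, SD, n = 3), Nfkb1 (77.2 ± 4.31) and Nfkbiz (76.2 ± 3.36), which overlapped their neighbours, then Rela (57.1 ± 1.58), Nfkb2 (32.1 ± 1.23), Relb (23.8 ± 0.27), Birc3 (16.4 ± 3.90), Tnfaip3 (7.74 ± 1.03), Nfkbie (4.23 ± 0.53) and Rel (3.02 ± 0.27). In Ad-OSCAR, Nfkbiz (329.7 ± 5.998 TPM) and Nfkbia (282.7 ± 3.66) stood far above Nfkb1 (98.2 ± 0.87), and Tnfaip3 (42.6 ± 0.96) moved above Birc3 (39.6 ± 0.37). No neighbours in that order overlapped. With 5-ASA the order differed in one place, where Nfkb2 (42.0 ± 3.49 TPM), Tnfaip3 (40.5 ± 1.84) and Relb (39.3 ± 1.65) overlapped. Rel and Nfkbie remained the lowest in all 3 groups. Rela transcripts outnumbered those of Rel by 19.0 ± 2.05 to 1 in Ad-Control, 17.1 ± 0.84 to 1 in Ad-OSCAR and 15.1 ± 0.99 to 1 with 5-ASA.

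**Figure D3:**
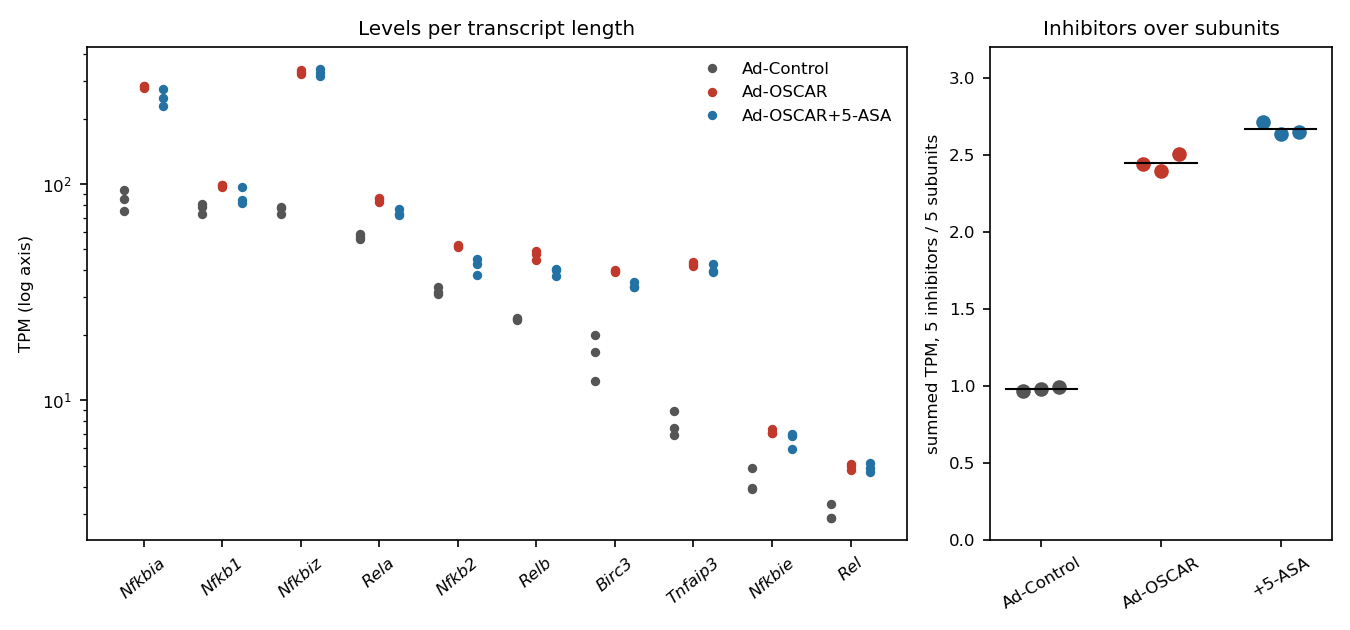
Left, TPM of each gene in every culture on a log axis, ordered by the Ad-Control mean, with one colour per group; right, the summed TPM of the 5 inhibitor genes divided by that of the 5 subunit genes in each culture, with the mean of each group as a line. The ratio lies between 0.967 and 0.994 in Ad-Control, between 2.395 and 2.505 in Ad-OSCAR and between 2.64 and 2.71 with 5-ASA.

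Summed over genes, the subunits had 193 ± 6.48 TPM in Ad-Control, 287 ± 3.16 in Ad-OSCAR and 247 ± 14.2 with 5-ASA. The inhibitors had 189 ± 7.18 TPM, 702 ± 10.6 and 660 ± 37.1 in the same order. The ratio of inhibitor to subunit transcripts, on which a common scaling of TPM has no effect, was 0.980 ± 0.014, 2.45 ± 0.06 and 2.67 ± 0.04 (SD, n = 3 each), and the 3 groups did not overlap. This ratio is a description of genes already tested and was given no test of its own. Nfkbiz and Nfkbia made up most of the inhibitor transcripts in Ad-OSCAR, with 47.0% and 40.3%. The ratio therefore says little of Tnfaip3 (6.07%), Birc3 (5.65%) and Nfkbie (1.02%). Because Nfkbiz and Birc3 are not inhibitors only, it compares lists of transcripts and is no measure of inhibition.

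Within the subunits, the share of Rela was 29.6 ± 0.41% in Ad-Control, 29.6 ± 0.41% in Ad-OSCAR and 29.8 ± 0.59% with 5-ASA. The share of Nfkb1 was 39.9 ± 0.92% in Ad-Control and 34.2 ± 0.63% in Ad-OSCAR, and that of Relb was 12.3 ± 0.30% and 16.4 ± 0.60%, neither with overlap. Nfkb2 held 16.6 ± 0.51% and 18.04 ± 0.36%, and Rel 1.57 ± 0.19% and 1.73 ± 0.07%. The ratio of Nfkbia to Rela transcripts was 1.48 ± 0.13 in Ad-Control, 3.33 ± 0.10 in Ad-OSCAR and 3.41 ± 0.19 with 5-ASA. The last 2 groups overlapped. All of these are RNA values, and the proteins, their place in the cell and NF-κB activity were not measured in these cultures.

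The rest of the pathway was read from lists of genes grouped by role. With OSCAR, other IκB genes and brakes had 14 of 24 tested genes higher and 6 lower (median log2 fold change 0.25), among them Tnip3 (0.768 to 7.39 CPM), a partner of A20, and Zc3h12a (60.2 to 218.2 CPM), which encodes the RNase Regnase-1. Pdlim2, whose product promotes the destruction of nuclear p65, fell from 21.8 to 11.5 CPM (log2 fold change -0.92 ± 0.09, edgeR adjusted p = 3.27e-08), and Otulin, encoding a linear-ubiquitin hydrolase, fell by 0.38. Kinases and adaptors had 15 of 30 higher and 4 lower (median 0.19). The TNF receptor adaptor Traf1 (2.18 to 13.4 CPM) and the IL-1 receptor kinase Irak2 (11.5 to 40.9 CPM) rose most, and Ube2n and Ube2v1, the pair that builds K63-linked ubiquitin chains, fell by 0.39 and 0.19.

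Of the ITAM and CARD route, which couples receptors of the OSCAR type to NF-κB in myeloid cells, 7 of 11 tested genes were higher and 2 lower (median 0.24). Vav3 (4.55 to 18.6 CPM) and Prkcd (23.1 to 57.8 CPM) rose most, and Card10 and Prkca fell by 0.80 and 0.12. FcRγ, the signalling chain of OSCAR in osteoclasts, was among the genes with too few counts to test. Its gene Fcer1g, looked up after the values were seen, had at most 1 count in each Ad-Control and Ad-OSCAR culture and at most 2 counts in each treated culture. Receptors had 7 of 20 higher and 7 lower (median 0.05). The TNF family receptors Cd40 (0.2998 to 3.17 CPM) and Tnfrsf9 (6.98 to 29.4 CPM) rose most, whereas Il1r1, the IL-1 receptor, fell from 200.8 to 72.2 CPM (-1.48 ± 0.05, edgeR adjusted p = 4.69e-15) and Edar fell by 1.79.

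Ligands had 3 of 6 tested genes higher and 2 lower (median 0.75). Il1a rose from 1 to 3 counts per culture to between 135 and 159 counts, Tnfsf11 (RANKL) rose from 16.0 to 83.3 CPM, and Il18 and Hmgb1 fell by 1.08 and 0.66. Known targets outside the 10 members had 29 of 32 higher and 1 lower (median 1.98). The cytokine gene Lif (9.21 to 528.5 CPM) and the chemokine gene Cxcl2 (4.84 to 232.2 CPM) rose most, and Csf1 fell from 366.1 to 122.9 CPM. The median change of the targets was thus larger than that of the subunits (0.66) and of the inhibitors (1.69). These lists were drawn up with results of these cultures known, and their counts stand beside a background in which 32.7% of genes were higher.

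**Figure D4:**
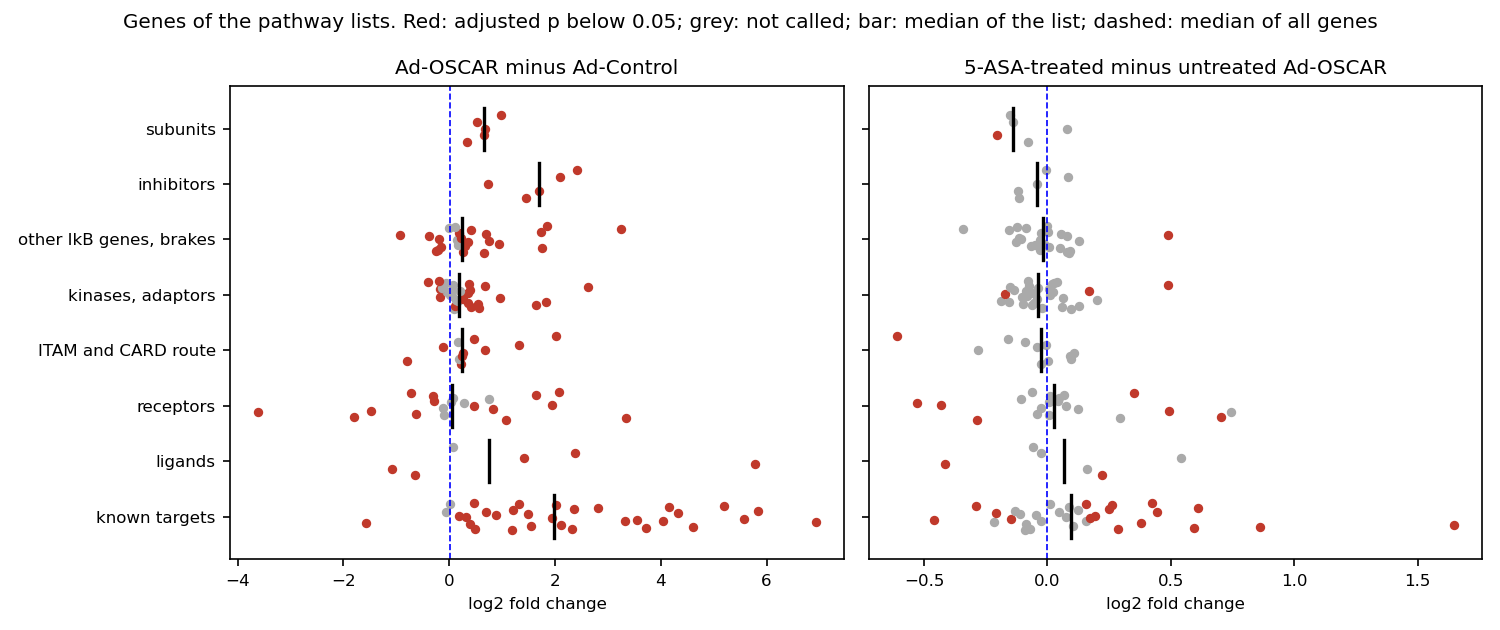
Log2 fold changes (x axis) of the tested genes in 8 lists of the pathway, for Ad-OSCAR minus Ad-Control (left) and 5-ASA-treated minus untreated Ad-OSCAR (right, on a narrower axis), in red where the adjusted p was below 0.05 and in grey otherwise, with the median of each list as a bar and that of all genes as a dashed line. On the left the known targets have a median of 1.98, and on the right the medians of all 8 lists lie between -0.14 and 0.10.

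With 5-ASA, the counts of the same lists stand beside 10.4% of all genes higher and 7.38% lower, or 17.8% called. Of 24 tested brakes 1 was called, higher, the gene being Pdlim2 (11.5 to 16.1 CPM, log2 fold change 0.49 ± 0.09, edgeR adjusted p = 0.000703). Kinases and adaptors had 2 of 30 higher (Traf5 and Tab2, by 0.49 and 0.17 on the log2 scale) and 1 lower (Rnf31, which fell by 0.17), and the ITAM and CARD route had 1 of 11 lower (Vav3, 18.6 to 12.2 CPM). Receptors had 3 of 20 in each direction. Il1r1 rose from 72.2 to 101.6 CPM and Edar from 1.23 to 2.00 CPM, while the Toll-like receptor genes Tlr2 and Tlr3 fell by 0.43 and 0.53. Of 6 ligands, Hmgb1 rose by 0.22 and Il1a fell by 0.42.

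Known targets had 13 of 32 genes higher and 4 lower with 5-ASA, and a median log2 fold change of 0.10. Cd83 (1.44 to 4.47 CPM) and Ccl5 (37.1 to 67.3 CPM) rose most. Cxcl10 (10.2 to 7.41 CPM, log2 fold change -0.46 ± 0.12, edgeR adjusted p = 0.00888) and the prostaglandin synthase gene Ptgs2 (1977 to 1617 CPM, -0.29 ± 0.07, edgeR adjusted p = 0.00417) fell most. The 10 members lay between these, with no log2 fold change beyond -0.20 or 0.08.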

How the data were processed

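RNA of 9 chondrocyte cultures was sequenced as stranded libraries with 2 reads of 100 bases, by Macrogen according to the study's reporting summary. According to the methods and the submitters' processing notes, reads were checked with FastQC, trimmed with BBDuk, aligned to GRCm38 with STAR 2.7.1a and quantified with RSEM 1.3.1. The deposited estimated counts are unscaled, and the deposited TPM are scaled by the study's RSEM run to each library. The study's reporting summary names an older RSEM version and a Gencode release for the TPM. The strand setting is not given in the sources used here. Of 55471 genes, 55144 were matched to GENCODE M21 symbols.

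Estimated counts were rounded and tested in R 4.3.3 with edgeR 4.0.16 (TMM, filterByExpr, quasi-likelihood F test, all 9 cultures, group as the only factor), with Benjamini-Hochberg adjustment over 15362 genes and calls at an adjusted p below 0.05. Standard errors were taken from the log2 fold change and the square root of its F statistic, and the coefficient of biological variation was 5.11%. No pair of cultures agreed within sampling noise (chi-square per degree of freedom 4.05 to 7.60). TPM, used for levels, were tested with limma 3.58.1 as an alternative, and DESeq2 1.42.0 was another. The edgeR step was tested on simulated data. Python 3.11.15 with pandas 2.3.3 and matplotlib 3.10.9 made the tables and plots.

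The members and lists were chosen with earlier results of these data known. Beside the members, the genes named are, per list and comparison, up to 2 called genes with the largest change in each direction and a mean of at least 1 CPM. Birc2, Fcer1g, Calcr, Csf1r and Mpeg1 were added after their values were seen. Marker lists of fibroblasts, osteoclasts and endothelial cells were also read.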

Additional observations from a re-analysis of the deposited data

How the results depend on the processing

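Against Ad-Control, all 10 members stayed higher and called, with or without 5-ASA, under all 15 alternatives tried for each comparison (RLE, DESeq2, no filter, at least 10 counts, only the groups compared, the replicate block, limma on TPM and each culture left out). For 5-ASA against untreated Ad-OSCAR, the number of members called was 1, and it became 2 with at least 10 counts in every culture (Relb, adjusted p = 0.049), 3 with limma on log2(TPM + 1) and 3 on log2(TPM + 0.1), where Rela and Relb joined Nfkb2 and 2049 and 1999 of 15362 genes (13.3% and 13.0%) were called, and 0 on log2(TPM + 1) with TMM factors, an alternative chosen after seeing the data (Nfkb2 -0.207, adjusted p = 0.0553). Leaving out 1 culture gave 0 to 2 members called: 0 without the second Ad-OSCAR or second 5-ASA-treated culture, 2 without the third Ad-OSCAR culture (Relb joined) or the third treated one (Rela joined). The cause was not tested. Genes called over the whole table numbered 2732, and 1388 by limma on TPM with TMM factors. Of the calls, 58.5% were higher by edgeR, 27.4% and 28.0% on unscaled TPM with the 2 pseudocounts, whose medians over all genes were -0.08 and -0.10, and 64.1% with TMM factors.

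Values that changed sign were small and not called: Rel (-0.018 and -0.022) and Nfkbiz (-0.014 and -0.014) on unscaled TPM, Tnfaip3 (0.016 on TPM with TMM factors, 0.003 without the second Ad-OSCAR culture, 0.014 without the second treated culture) and Nfkbie (0.030 without the latter). Over the cultures left out in turn, Tnfaip3 ranged from -0.027 to 0.014 and Nfkbie from -0.086 to 0.030. In the same fits, Nfkb1 ranged from -0.126 to -0.044 and Rel from 0.036 to 0.1. Replicate numbers did not pair the cultures (mean correlation of deviations -0.021, from -0.072 to 0.040). With the replicate block, 9884 genes were called for OSCAR, 2499 for 5-ASA and 9555 for treated cells against Ad-Control, and no member's call changed. Nfkbie, with the fewest counts of the members (105 to 144 in Ad-Control), had the largest standard errors, and Oscar and Il1a in Ad-Control rest on 4 counts or fewer.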

Other observations

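The other marker lists are given here in the order Ad-Control, untreated Ad-OSCAR and treated Ad-OSCAR. Fibroblast and synovial markers summed to between 14880 and 15660 CPM, 11970 and 12810 CPM, and 14330 and 15320 CPM. Within that list, 3 of 8 genes were higher and 5 lower with OSCAR, beside 32.7% of all genes called higher and 32.2% lower. Among the 8 were Prg4 (246.6 to 897.3 CPM), which encodes the joint lubricant lubricin, Pdpn (115.8 to 283.2 CPM), Thy1 (14.1 to 2.43 CPM) and Col1a1 (9195 to 2895 CPM). The 6 osteoclast markers summed to between 17.7 and 18.7 CPM, 18.4 and 18.8 CPM, and 17.4 and 18.7 CPM, and Dcstamp was at 0 in every culture. All 4 of those tested were called with OSCAR, 3 higher and 1 lower (median log2 fold change 1.87), beside 65% of all genes called. Atp6v0d2 went from at most 1 count to between 40 and 54 counts per culture, Calcr from 1 to 3 counts to between 11 and 25, and Ctsk from 5.32 to 8.0 CPM, while the more abundant Acp5 fell from 12.6 to 8.22 CPM. Endothelial markers were near 0 (1 of 5 tested, Tek, from 0.598 to 2.22 CPM with OSCAR). Of 5 tested leukocyte markers, 2 were higher with OSCAR (Cd68 and Lyz2), 1 was lower (Mrc1) and 2 were not called (Csf1r and Mpeg1). These counts too stand beside 65% of all genes called. Cd68 rose from 1.99 to 8.21 CPM with OSCAR and fell to 6.30 CPM with 5-ASA. The part of any of these in the levels of the NF-κB genes was not tested.

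Chondrocyte markers had 6 of 10 genes called with 5-ASA by edgeR, all as higher, with the largest rises in Col11a1 (781.1 to 1158 CPM) and Col9a1 (63.6 to 85.2 CPM), beside 10.4% of all genes called higher.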
